A study of Mus musculus with 6 samples.

Results

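Desmosome genes are described here in mouse submandibular salivary gland organoids (mSGOs) that were followed from day 5 to day 7 of culture. The 10 genes are the desmosomal cadherins *Dsg1b*, *Dsg2*, *Dsg3*, *Dsc1*, *Dsc2* and *Dsc3*, the plaque genes *Jup*, *Pkp1* and *Pkp3*, and the plakin *Dsp*. They were taken as a named list and matched by symbol to the Ensembl IDs of the count files, where they are 10 of 47643 IDs. All 10 passed the filter on low counts and are among the 15792 genes tested. The organoids were grown in Matrigel, a basement membrane gel, from submandibular gland cells of female C57BL/6 mice, 8 to 12 weeks old, in WRY medium with Wnt3a and R-spondin1. They were untreated and not irradiated, and serve as the control cultures of a study on radiation damage. Cultures from 3 mice were collected at day 5 and at day 7, so that each mouse gave 1 library per day and 6 libraries in all. Both groups share genotype, medium and treatment and differ in the day of collection.

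Desmosomes are spot-like junctions that rivet neighbouring epithelial cells together and anchor their keratin filaments. Desmogleins and desmocollins are calcium-dependent cadherins that span the gap between the cells. Their tails bind plakoglobin (*Jup*) and plakophilins in the plaque, and desmoplakin (*Dsp*) ties the plaque to keratins. *Dsg2* and *Dsc2* are the broadly expressed cadherins, *Dsg3* and *Dsc3* are typical of basal layers of stratified epithelia, and *Dsg1* and *Dsc1* of upper, differentiated layers.

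Total counts in genes ranged from 1918198 to 2837397 per library. Libraries were prepared from the 3′ ends of polyadenylated RNA, so a value in CPM, which are counts scaled to a library of 1000000, follows transcript number without division by gene length. The day 7 libraries lay further apart than those of day 5, with a biological coefficient of variation of 0.290 against 0.0900. Of the markers of duct epithelium, 8 of 8 had counts, and their summed level was 14382 to 18158 CPM at day 5 and 11558 to 16010 CPM at day 7. Acinar markers summed to 7.03 to 12.6 CPM at day 5 and 11.9 to 35.7 CPM at day 7, with *Prol1* and *Lpo* at 0 in every library and no row matched for *Muc19*. Among markers of other cells, *Col1a2*, *Col3a1*, *Lum*, *Cdh5*, *Tek*, *Adgre1*, *Csf1r*, *Hba-a1* and *Hbb-bs* were at 0 throughout. The 4 leukocyte markers summed to 0.360 to 1.65 CPM at day 5 and 3.45 to 6.85 CPM at day 7. The 3 myoepithelial markers, with *Acta2* at 0 at day 5, summed to at most 0.360 CPM at day 5 and to 1.96 to 9.02 CPM at day 7. The 6 fibroblast markers stayed at or under 1.96 CPM and the 4 endothelial markers at or under 0.502 CPM. In the test between days described next, 1 marker of each of 3 such types was higher at day 7, *Pip* for acinar cells, *Cd68* for leukocytes and *Acta2* for myoepithelium. *Acta2* passed the filter on low counts through its day 7 libraries alone, so it could only be called higher. The part of these other cells in the results on desmosome genes was not tested. In bulk libraries, fewer cells of a type and less RNA per cell cannot be told apart.

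*Pkp3*, which encodes plakophilin 3, was the desmosome gene past the threshold between the days. It rose from 143 ± 11.4 to 284 ± 106 CPM (SD, n = 3). The threshold was an adjusted p under 0.05 in the quasi-likelihood test of edgeR and an absolute log2 fold change over 0.6. Of the 10 members 1 passed it, while 12.0% of all genes tested did (7.22% higher and 4.82% lower at day 7), so the count of members is near the background. Fold changes of 9 members were positive, as were those of 7833 of the 15792 genes tested. Those of *Jup* (0.09 ± 0.24, SE) and *Dsc1* (1.07 ± 1.01, from 10 counts in all) were no larger than about their error. The median over the members was 0.47 on the log2 scale against -0.01 over all genes tested. At an unadjusted p under 0.05 there were 6 members, all higher at day 7, compared with 25.8% of all genes in either direction and 14.4% higher at day 7. In *Dsg2*, *Dsg3*, *Dsp* and *Pkp3* every day 7 library exceeded every day 5 library, an order found in 15.4% of genes tested. No member showed the opposite order, found in 15.5%. These shares were larger among the 8171 tested genes that averaged 10 CPM or more, as 9 of the members did. There 2783 had an unadjusted p under 0.05 in either direction, and 823 higher and 618 lower at day 7 were past the threshold. Every day 7 library exceeded every day 5 library in 1596 of the 8171, and 1638 had the opposite order. Their median fold change was 0.02. Summed over the members, the level was 2555, 2886 and 2478 CPM at day 5 and 4035, 3271 and 3613 CPM at day 7 for mice 1, 2 and 3, with no overlap between the days. *Dsp* alone gave 1366, 1420 and 1202 CPM of these sums at day 5 and 1969, 1555 and 1997 CPM at day 7. The sum of the other members was apart between the days too, and sums over other sets of genes were not compared.

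**Figure D1:**
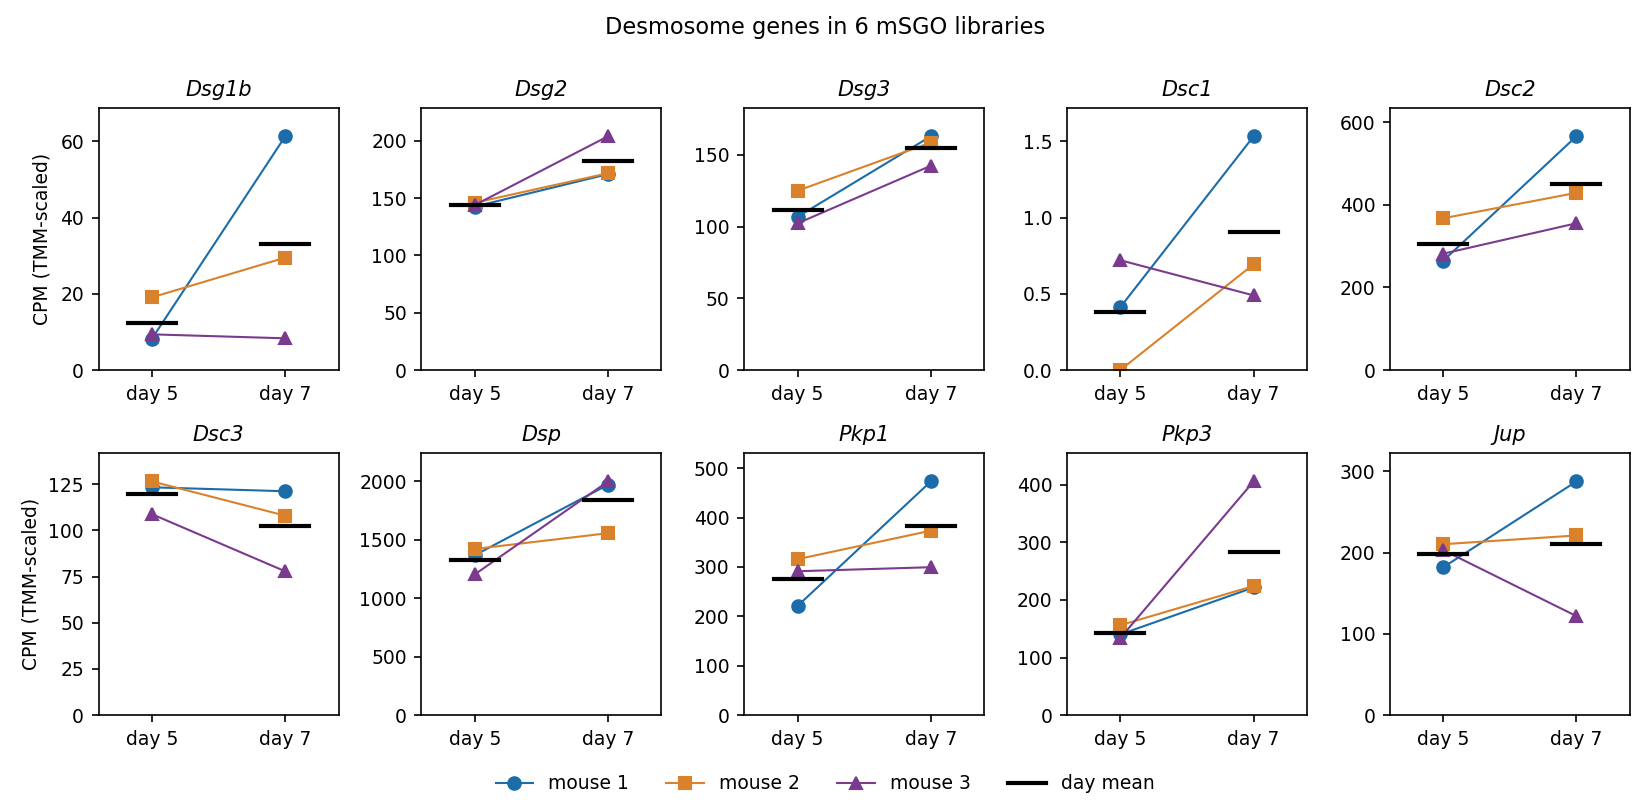
Level of each of the 10 desmosome genes in CPM (y axis, from 0, own scale per gene) at day 5 and day 7 (x axis), with points for mouse 1, 2 and 3, a line joining the same mouse and a black bar for the mean of the day. The days are apart in *Dsg2*, *Dsg3*, *Dsp* and *Pkp3*, and at day 7 mouse 3 is the highest in *Pkp3* (406 CPM) and the lowest in *Jup* (122 CPM).

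The desmogleins were led by *Dsg2* and *Dsg3*. *Dsg2* (ENSMUSG00000044393) measured 143, 146 and 144 CPM at day 5 and 171, 172 and 204 CPM at day 7 in mice 1, 2 and 3. It was the tightest member at day 5, and its day 7 values all lay above, yet the difference of 0.34 ± 0.18 on the log2 scale (SE) missed the threshold (edgeR adjusted p = 0.258). *Dsg3*, the antigen of pemphigus vulgaris, measured 107, 125 and 102 CPM at day 5 and 163, 159 and 142 CPM at day 7. Here too the days did not overlap, and the fitted difference was 0.48 ± 0.19 (SE, edgeR adjusted p = 0.107). *Dsg3* was the member of at least 10 CPM whose libraries were not further apart at day 7 than at day 5.

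*Dsg1b*, one of the mouse copies of desmoglein 1, was low and the most uneven member. Its counts were 20, 38 and 26 at day 5 and 160, 85 and 17 at day 7, which are 8.25, 19.1 and 9.36 CPM and 61.4, 29.5 and 8.32 CPM for mice 1, 2 and 3. Mouse 1 was 2.78 higher at day 7 on the log2 scale and mouse 2 was 0.61 higher, whereas mouse 3 differed by -0.16, so the days overlapped. The fitted fold change of 1.48 ± 0.48 (SE) just missed the threshold (edgeR adjusted p = 0.0516). With the mouse as a block it was 1.21 and past the threshold (edgeR adjusted p = 0.00126), in a fit that called 14.8% of all genes, and without a filter on low counts it passed as well (adjusted p = 1.6e-05, 12.9% of genes called). Other settings moved it away, with an adjusted p of 0.107 with filterByExpr, 0.113 after thinning to the smallest library, 0.217 with limma voom and 0.300 with robust dispersion. Without the day 7 library of mouse 1 the fold change was 0.70 (adjusted p = 0.276), and without that of mouse 3 it was 1.92 (adjusted p = 0.0010). The related *Dsg1a* had 4, 4 and 5 counts at day 5 and 15, 11 and 2 at day 7, the same order of mice at day 7 as *Dsg1b* (log2 fold change 0.99 ± 0.60, SE, edgeR adjusted p = 0.313). *Dsg1c* and *Dsg4* were at 0 in every library, where 3 counts, the most a count of 0 allows, are 1.04 to 1.51 CPM.

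*Dsc2* and *Dsc3*, the main desmocollins, had fitted changes of opposite sign, neither past the threshold. *Dsc2* measured 264, 367 and 282 CPM at day 5 and 566, 429 and 355 CPM at day 7. It was higher at day 7 in each of the 3 mice, most in mouse 1, but the day 7 value of mouse 3 lay below the day 5 value of mouse 2. The difference of 0.57 ± 0.21 (SE) was short of the threshold (edgeR adjusted p = 0.0892). *Dsc3* was the one member with a negative fitted change, with 123, 127 and 109 CPM at day 5 and 121, 108 and 77.8 CPM at day 7. Its day 7 values were lower in each mouse and least so in mouse 1, the days overlapped, and the fold change was -0.22 ± 0.20 (SE, edgeR adjusted p = 0.531). *Dsc1*, the desmocollin of the outermost living layers of skin, was close to absent, with 3 counts over the day 5 libraries and 7 over those of day 7. That is a ratio of 2.23 with a 95% counting interval of 0.509 to 13.4, which includes no difference.

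Within the desmocollin family, values do not depend on the scaling between libraries. *Dsc2* made up 68.1%, 74.4% and 72.01% of desmocollin counts at day 5 and 82.2%, 79.8% and 81.9% at day 7 for mice 1, 2 and 3. Its mean share went from 71.5 ± 3.17% to 81.3 ± 1.32% (SD, n = 3) and the share of *Dsc3* from 28.4 ± 3.12% to 18.5 ± 1.34%, each without overlap between the days. *Dsc1* held at most 0.223%, so both shares and the ratio given next are the same observation in different forms. The count of *Dsc2* relative to *Dsc3* was 2.14, 2.90 and 2.59 at day 5 and 4.67, 3.97 and 4.57 at day 7, so the ratio was higher at day 7 in all 3 mice. No test was run on shares or ratios. Of 5 count ratios chosen between members, this was the one without overlap between the days. Those 5 held no other ratio to *Dsc3*. Counts of *Dsg2*, *Dsg3*, *Dsp*, *Pkp1* and *Pkp3* relative to *Dsc3* were also higher in every day 7 library than in every day 5 library. The shift was thus not particular to *Dsc2*, and the share of gene pairs with such an order was not counted. Desmoglein shares were steadier for *Dsg3*, which held 39.7% to 42.8% at day 5 and 40.0% to 43.6% at day 7. *Dsg2* held 50.0% to 55.9% at day 5 and 42.6%, 47.2% and 57.4% at day 7, and *Dsg1b* took 15.3%, 8.11% and 2.34% at day 7 in mice 1, 2 and 3.

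**Figure D2:**
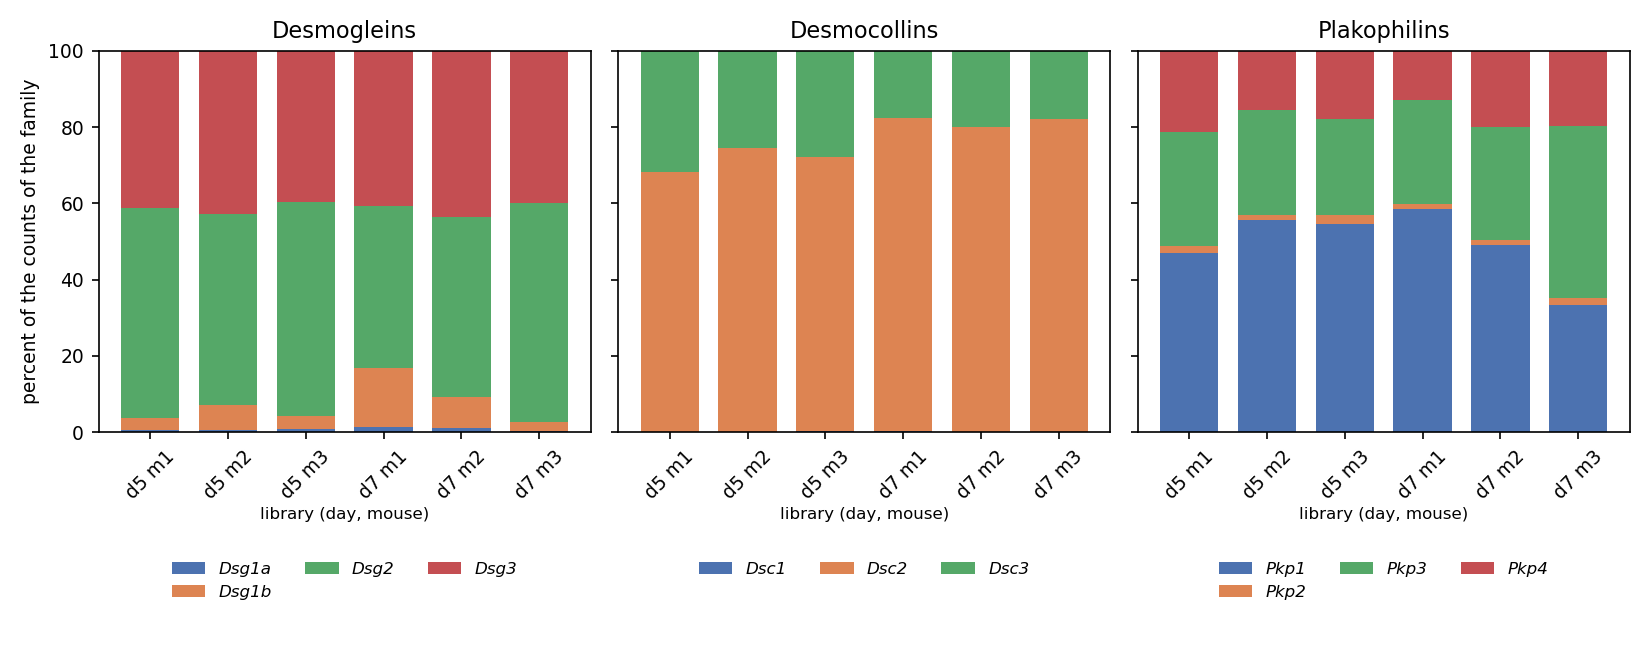
Percent of the counts of each gene family (y axis) held by its members in each library (x axis, day and mouse) as stacked bars for desmogleins, desmocollins and plakophilins. *Dsc2* held 68.1% to 74.4% of desmocollin counts at day 5 and 79.8% to 82.2% at day 7, and *Pkp3* reached 45.2% of plakophilin counts in mouse 3 at day 7.

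In the plaque, *Pkp3* was past the threshold. Plakophilin 3 binds nearly all desmosomal cadherins and desmoplakin and is found through all layers of stratified epithelia. Its level was 140, 156 and 134 CPM at day 5 and 222, 224 and 406 CPM at day 7 for mice 1, 2 and 3. The days did not overlap, and the within-mouse differences of 0.66, 0.52 and 1.59 on the log2 scale were all upward, with mouse 3 far above the other two. The fitted fold change was 0.98 ± 0.23 (SE, edgeR adjusted p = 0.0081). Without the day 7 library of mouse 3 it was 0.64 and still past the threshold (adjusted p = 0.0042), and without both libraries of mouse 3 it was 0.59 (adjusted p = 0.0456), under the minimum change. With any 1 day 5 library left out, the fold change was 0.94 to 1.05 and the adjusted p 0.0529 to 0.0733.

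*Pkp1*, the plakophilin of suprabasal layers, measured 221, 316 and 291 CPM at day 5 and 473, 373 and 299.5 CPM at day 7. It was higher at day 7 by 1.10 in mouse 1, 0.24 in mouse 2 and 0.04 in mouse 3, with overlap between the days, and the fitted fold change was 0.47 ± 0.21 (SE, edgeR adjusted p = 0.161). The 2 plakophilins thus had opposite orders of mice at day 7. The count of *Pkp3* relative to *Pkp1* was 0.634, 0.494 and 0.460 at day 5 and 0.468, 0.60 and 1.35 at day 7. *Pkp3* outnumbered *Pkp1* in mouse 3 at day 7 and in no other library.

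*Jup* encodes plakoglobin, which serves both desmosomes and adherens junctions. It measured 182, 210 and 203 CPM at day 5 and 288, 221 and 122 CPM at day 7. The day 7 libraries fell on both sides of the day 5 values, 0.66 higher in mouse 1 and -0.73 in mouse 3, and the fold change was 0.09 ± 0.24 (SE, edgeR adjusted p = 0.873). Its sign turned with scaling by library totals (-0.01) and without the day 7 library of mouse 1 (-0.21). Relative to *Jup*, *Pkp3* counts were 0.660 to 0.771 at day 5 and 0.771, 1.01 and 3.33 at day 7.

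*Dsp* was the most abundant member on both days. Desmoplakin is the obligate link from the plaque to keratin filaments. Its level was 1366, 1420 and 1202 CPM at day 5 and 1969, 1555 and 1997 CPM at day 7 for mice 1, 2 and 3, with no overlap between the days. Mouse 2 differed by 0.13 on the log2 scale and mice 1 and 3 by 0.53 and 0.73. The fold change of 0.47 ± 0.19 (SE) missed the threshold (edgeR adjusted p = 0.115). *Dsp* counts were 5.92 to 7.51 times those of *Jup* at day 5, 6.85 and 7.03 times in mice 1 and 2 at day 7 and 16.4 times in mouse 3.

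Promoter sequence from RefSeq was matched for *Dsp* and *Jup*, 2 of the 10 members, shown because these had an entry. The stretches below run 5′ to 3′ on the strand of the gene and leave out exons annotated on that strand, while exons of the predicted genes *Gm10129* (*Dsp*) and *Gm12348* (*Jup*) lie on the opposite strand within them. For *Dsp* it is chr13:38335020-38335229 (plus strand, 250 to 41 bases before the RefSeq start) and for *Jup* chr11:100288670-100288866 (minus strand, 250 to 54 bases before it, in an intron of longer annotated *Jup* transcripts), placed on GRCm39 by exact match. Capitals mark GGGCGG, the GC box bound by SP and KLF factors, on either strand, and CCAAT.
Dsp: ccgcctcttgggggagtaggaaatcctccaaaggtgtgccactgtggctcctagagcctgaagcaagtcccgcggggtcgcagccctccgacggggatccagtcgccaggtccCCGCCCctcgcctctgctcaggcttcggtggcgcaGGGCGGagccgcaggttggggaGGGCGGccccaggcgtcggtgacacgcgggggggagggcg
Jup: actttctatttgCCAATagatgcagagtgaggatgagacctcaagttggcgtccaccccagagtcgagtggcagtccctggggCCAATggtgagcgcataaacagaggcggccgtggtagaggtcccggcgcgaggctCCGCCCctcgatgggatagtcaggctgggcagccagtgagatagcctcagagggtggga
The *Dsp* stretch is 71.9% G and C and holds 3 GC boxes, starting 137, 102 and 80 bases before the RefSeq start. The *Jup* stretch is 60.4% G and C and holds 1 GC box and 2 CCAAT boxes. In the same windows of 32544 RefSeq promoters, GGGCGG was found in 26.9% and 24.3%, and CCAAT in 29.8% and 27.8%. Searches on both strands for TGANTCA (AP-1), ACCGGTT (the GRHL core) and TATAAA found no match in either stretch, and these letters occur in 5.83%, 0.679% and 9.5% of promoters in the *Dsp* window. A match describes letters and is not evidence of binding.

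**Figure D3:**
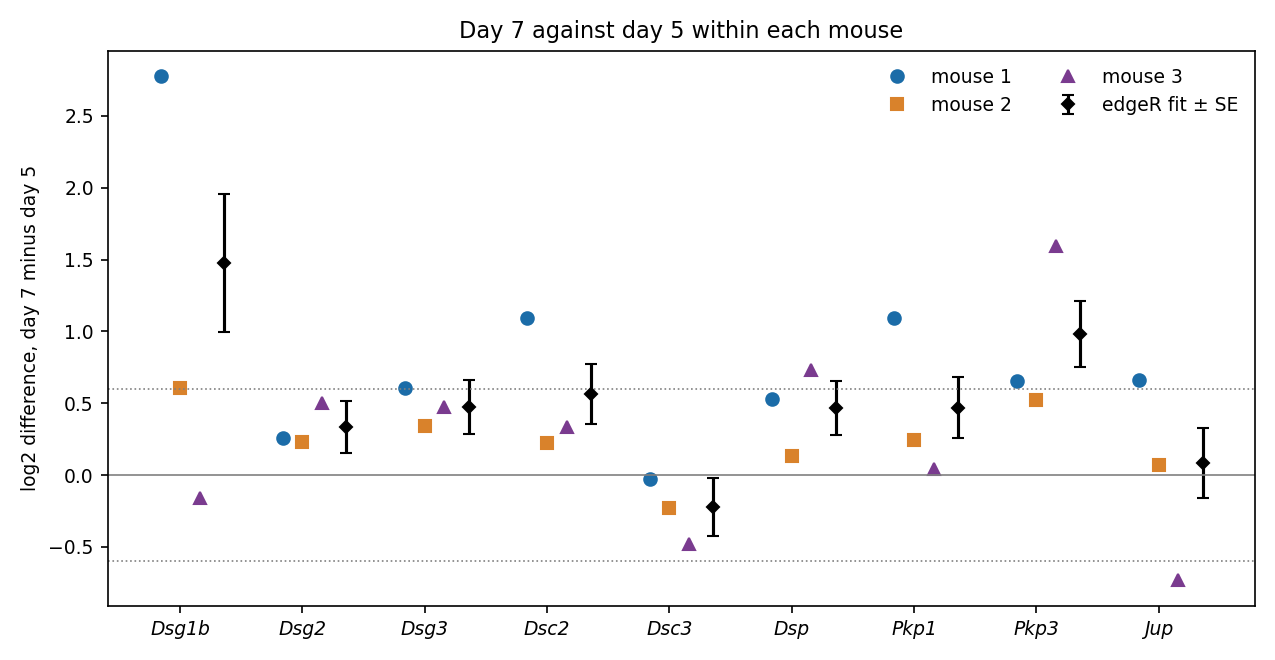
Difference of day 7 minus day 5 on the log2 scale (y axis) for the 9 desmosome genes at or above 10 CPM on average (x axis), with coloured points for each mouse and a black diamond for the edgeR fold change ± SE. Dotted lines mark the minimum change of 0.6 in either direction. *Dsg1b* spans -0.16 to 2.78 and *Jup* -0.73 to 0.66 between mice, whereas the 3 points of *Dsg2* and of *Dsg3* lie close together.

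The cadherin genes form a cluster on chromosome 18 of GRCm39, with *Dsc3* (chr18:20093987-20135408), *Dsc2* (chr18:20163675-20192717) and *Dsc1* (chr18:20217241-20247928) on the minus strand, followed by *Dsg1b* (chr18:20509781-20543253), *Dsg3* (chr18:20643331-20680516) and *Dsg2* (chr18:20691074-20737581) on the plus strand. The neighbours *Dsc3* and *Dsc2* had fitted changes of opposite sign, and *Dsc1*, the next gene, had almost no counts. The plaque genes are dispersed, with *Pkp1* at chr1:135799133-135846945, *Pkp3* at chr7:140658040-140670423, *Jup* at chr11:100259784-100291103 and *Dsp* at chr13:38335230-38382553. Exons of predicted genes lie on the opposite strand of *Dsg1b*, *Dsg2*, *Dsg3*, *Dsp* and *Pkp3*. For *Pkp3*, the antisense gene *Gm72182*, which has no row in the count files, matched 298 consecutive bases among the last 500. Whether counting used the strand is not given in the sources used here, so reads from that strand and from *Pkp3* cannot be told apart. No member shared exons with another gene of its own strand.

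Ordered by mean level, the members at day 5 ran from *Dsp* through *Dsc2*, *Pkp1*, *Jup*, *Dsg2*, *Pkp3*, *Dsc3*, *Dsg3* and *Dsg1b* to *Dsc1*. The ranges of *Dsc2* and *Pkp1*, of *Dsg2* and *Pkp3*, and of *Dsc3* and *Dsg3* overlapped, so these neighbours could not be ranked by their ranges. Within each day 5 library *Dsc3* was above *Dsg3*, while the order of the other pairs differed between libraries. At day 7 *Pkp3* stood ahead of *Jup* and *Dsg2*, but from *Dsc2* to *Dsg2* each neighbour overlapped the next, while *Dsg3* lay above *Dsc3* without overlap. Within each day 7 library *Dsc2* was above *Pkp1*. The SD of log2 CPM was larger at day 7 than at day 5 in 8 of the 9 members of at least 10 CPM, with medians of 0.329 and 0.125, as it was in 80.4% of all genes of that level, with medians of 0.327 and 0.156. Across the 6 libraries, which share day and mouse, log2 levels of *Dsg2* and *Pkp3* had a Pearson r of 0.99, *Dsc2* and *Pkp1* 0.96, and *Dsc3* and *Pkp3* -0.82. These values rest on few points and describe the libraries.

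Other genes of desmosomes and cornified junctions included 3 that rose, of 7 tested from a list of 9, and none that fell, beside 7.22% and 4.82% of all genes tested. Among the 3, *Cdsn* passed the filter on low counts through its day 7 libraries alone, so it could only be called higher. Periplakin (*Ppl*) and envoplakin (*Evpl*) are plakins that join desmosomes and keratins to the cornified envelope. *Ppl* measured 110, 83.3 and 90.03 CPM at day 5 and 176, 271 and 199 CPM at day 7, without overlap, a rise of 1.19 ± 0.21 (SE, edgeR adjusted p = 0.00098). *Evpl* rose from 27.3 ± 6.71 to 54.9 ± 8.16 CPM (SD, n = 3), by 1.01 ± 0.24 (SE, edgeR adjusted p = 0.0084), a call that was lost without day 5 replicate 1 or 3 or day 7 replicate 2 (adjusted p 0.0564 to 0.0878) and under glmTreat (0.174). Corneodesmosin (*Cdsn*), the adhesive of the desmosomes of cornified layers, had no count at day 5 and 49, 122 and 23 counts at day 7. Against a limit of 3 counts over the day 5 libraries it was at least 61.8-fold higher at day 7, or 37.1-fold without the day 7 library of mouse 2. *Perp*, a tetraspan protein needed for desmosome assembly, went from 1236 ± 240 to 1852 ± 493 CPM (log2 fold change 0.58 ± 0.22, SE, edgeR adjusted p = 0.0986), with mouse 3 lowest at day 7. *Pkp4* was 94.4 ± 6.05 CPM at day 5 and 144 ± 36.9 CPM at day 7 (0.61 ± 0.21, SE, edgeR adjusted p = 0.0669), and *Pkp2* was 9.48 and 11.9 CPM. The median fold change of the tested genes of the list was 0.99.

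Of 11 keratins that desmosomes anchor, 3 rose and 1 fell, beside 7.22% and 4.82% of all genes tested, with a median of 0.16. *Krt10*, a keratin of differentiating suprabasal cells, rose from 93.2, 116 and 98.3 CPM to 572, 494 and 236 CPM, by 2.08 ± 0.26 (SE, edgeR adjusted p = 4.3e-05). *Krt6b*, a keratin of stressed and stratifying epithelium, rose from 224, 522 and 296 CPM to 2969, 1403 and 592 CPM, by 2.25 ± 0.41 (SE, edgeR adjusted p = 0.0013), and *Krt15* by 1.32 ± 0.28 (SE, edgeR adjusted p = 0.0044). In *Krt10* and *Krt6b*, as in *Dsg1b*, *Dsc2* and *Pkp1*, mouse 1 was highest and mouse 3 lowest at day 7. The keratins *Krt5*, *Krt6a* and *Krt16* had this order too. *Krt8*, a luminal duct keratin, fell by 0.65 ± 0.20 on the log2 scale (SE, edgeR adjusted p = 0.0374), with 95.4 to 120 CPM at day 5 and 60.7 to 78.2 CPM at day 7. Other luminal keratins had positive fold changes, 0.16 for *Krt18* (edgeR adjusted p = 0.765) and, among the duct markers, 0.52 for *Krt7* (adjusted p = 0.140) and 1.78 for *Krt19*, which rose (adjusted p = 1.6e-05). The abundant basal keratins *Krt5* and *Krt14* had fold changes of -0.49 (edgeR adjusted p = 0.140) and -0.24 (adjusted p = 0.580), and *Krt5* was past the threshold at -0.72 without day 7 replicate 1 (adjusted p = 0.0070). The call of *Krt6b* was lost with robust dispersion (adjusted p = 0.138), and that of *Krt15* under glmTreat (0.0527), a test against the minimum change, and without day 5 replicate 2 (0.0679). That of *Krt8* was lost without any 1 day 5 library (0.0916 to 0.178), without day 7 replicate 2 (0.136) or both libraries of mouse 3 (0.0662), after thinning to the smallest library (0.0687) and under glmTreat (0.632).

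Of 11 genes of adherens junctions, the actin-linked neighbours of desmosomes, 2 rose and none fell, beside 7.22% and 4.82% of all genes tested, with a median of 0.18. Fold changes of 10 were positive. In 4 of them every day 7 library exceeded every day 5 library, as in 4 of the desmosome genes. *Nectin2* rose from 30.6 ± 4.71 to 74.9 ± 19.7 CPM (SD, n = 3; 1.29 ± 0.24, SE, edgeR adjusted p = 0.0016). *Nectin4* went from 22.8 ± 5.13 to 54.8 ± 28.6 CPM, with 22.5 CPM in mouse 3 at day 7 (1.28 ± 0.34, SE, edgeR adjusted p = 0.0177), and its call was lost without any 1 day 5 library (adjusted p 0.0636 to 0.130), without day 7 replicate 2 (0.107), with limma voom (0.0865), with robust dispersion (0.0719) and under glmTreat (0.126). E-cadherin (*Cdh1*) was 1000 ± 54.95 CPM at day 5 and 1301 ± 146 CPM at day 7 (0.38 ± 0.18, SE, edgeR adjusted p = 0.198), a size of difference like that of *Dsp* and *Dsg3*. P-cadherin (*Cdh3*) resembled *Jup* in mouse 3, with 58.0 to 67.8 CPM at day 5 and 93.6, 100.3 and 18.6 CPM at day 7.

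Among 11 regulators and sheddases known for desmosomal genes or proteins, 1 rose and none fell, near the 7.22% of all genes tested that were called higher at day 7. *Prdm1*, a transcription factor of terminal epidermal differentiation, had 2 counts at day 5 and 68, 35 and 4 counts at day 7 in mice 1, 2 and 3 (edgeR adjusted p = 0.00064), a ratio of 51.1 with a 95% counting interval of 13.8 to 427. *Trp63*, the master regulator of stratified epithelia, measured 107, 95.9 and 82.5 CPM at day 5 and 181, 130 and 76.8 CPM at day 7 (0.45 ± 0.25, SE, edgeR adjusted p = 0.271). *Grhl1*, known to act on the *Dsg1* promoter, had 127, 116 and 34.3 CPM at day 7 after 63.1 to 93.4 CPM at day 5 (0.30 ± 0.32, SE, edgeR adjusted p = 0.610). Both genes were highest in mouse 1 and lowest in mouse 3 at day 7, the order also seen in *Dsg1b*, *Dsg3*, *Dsc2*, *Dsc3*, *Pkp1* and *Jup*. The order was not particular to these genes, as *Klf4*, *Grhl2*, *Adam17*, *Vcl*, *Nectin1* and *Krt5* also had it. Its share over all genes was not counted, and a link between regulators and desmosome genes was not tested. *Zfp750* was 0.69 ± 0.24 higher (SE, edgeR adjusted p = 0.0686). Without the day 7 library of mouse 3, *Trp63*, *Grhl1* and *Zfp750* passed the threshold, in a fit that called 16.7% of all genes tested. So did *Dsg1b*, *Dsc2*, *Pkp1* and *Pkp3* among the desmosome genes. The sheddases *Adam10* and *Adam17*, which cleave desmosomal cadherins, had fold changes of 0.17 and -0.15 (edgeR adjusted p = 0.614 and 0.747).

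**Figure D4:**
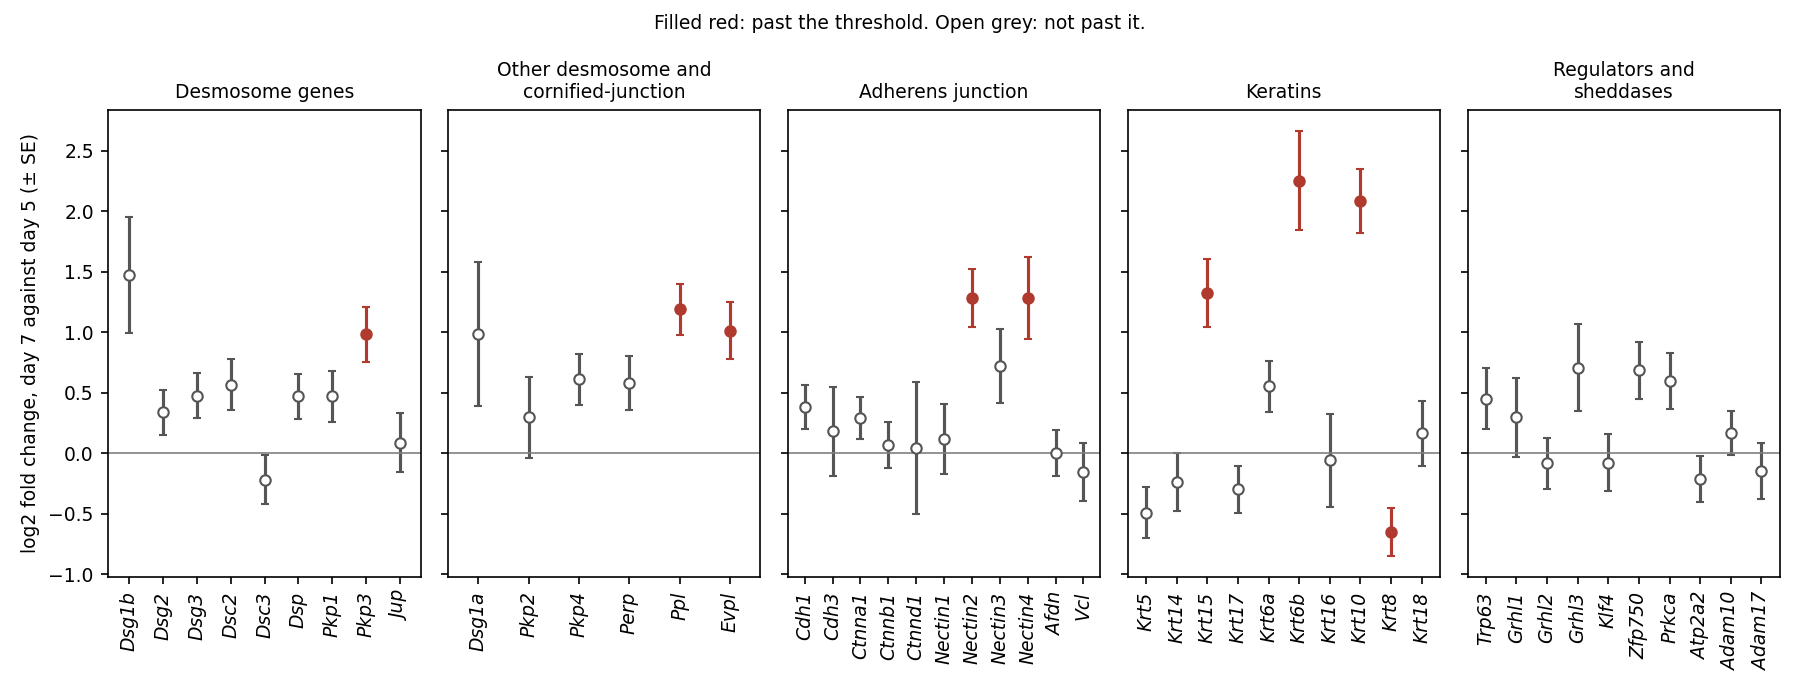
Fitted log2 fold change of day 7 against day 5 with its SE (y axis) for the tested genes of 5 lists (x axis), leaving out genes with under 4 counts on either day. Filled red points are past the threshold. Among desmosome genes *Pkp3* is filled, and the other panels hold *Ppl*, *Evpl*, *Nectin2*, *Nectin4*, *Krt15*, *Krt6b*, *Krt10* and *Krt8*.

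The genes most like each member were found by Pearson r of log2 CPM over the 6 libraries, among 8037 named genes that averaged 10 CPM or more. *Pkp3* ran with *Kiz* (0.9995) and *Ube2j1* (0.998), *Dsg2* with *Thra* (0.995) and *Dmxl1* (0.994), and *Dsp* with *Smim22* (0.974) and *Art4* (0.973). *Dsg1b* ran with *Neo1* (0.998) and *Spg21* (0.995), *Dsg3* with *Elp3* (0.997) and *Zfx* (0.993), and *Jup* with *Mblac2* (0.993) and *Flrt2* (0.991). *Dsc2* ran with *Csrp2* (0.990) and the keratin gene *Krt6b* (0.988), *Pkp1* with *Rnf13* (0.983) and *Pdk1* (0.981), and *Dsc3* with *Rpl36* (0.996) and *Ankrd27* (0.993). No partner was shared between members. Each partner was picked as among the highest of 8037 genes over 6 libraries, so high values of r follow in part from the choice. They describe these libraries, and a link between the genes was not tested.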

How the data were processed

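Total RNA of mSGOs was made into libraries with the Lexogen QuantSeq 3′ kit. The deposited files hold whole-number read counts per Ensembl gene ID and library, which the authors obtained after alignment to GRCm39. The aligner, annotation release and strand setting are not given in the sources used here. Rows that name no gene (13.7% to 14.4% of reads at day 5 and 9.12% to 9.74% at day 7) were left out. Symbols came from GENCODE vM39 by ID (43465 of 47643 IDs).

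The filter kept a gene counted at least once (1 read) in 2 or more libraries. Day 7 was then set against day 5 in edgeR 4.0.16 (R 4.3.3; glmQLFit and glmQLFTest, two-sided) with TMM scaling, no term beside day, and Benjamini-Hochberg adjustment across the genes kept. Thresholds were those named in the study's methods. In CPM, counts are given per TMM-scaled library size times 1000000, with a prior count of 2 for log2 values per library. Intervals (95%) rest on counts summed over the libraries of a day. They and the limits of 3 counts cover counting error only and leave out the variation between mice. Reads carried no molecular identifiers, so duplicate reads could make that error look too small. The fit was tested on simulated data with the same spread in all libraries and no effect of the mouse. As the real day 7 libraries lay further apart than those of day 5, that test cannot show how the fit handles unequal spread.

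The design text names 3 mice sampled on both days and the titles number them, so libraries are paired by animal. Deviations of same-mouse libraries from the day means correlated at 0.14, -0.10 and 0.16 for mice 1, 2 and 3 over 8171 genes. The main fit does not use this pairing. Its p-values rest on 3 mice per day and on a spread per gene that is shared by both days and drawn towards that of other genes. The common biological coefficient of variation in that fit was 0.213, between the values of the separate days. A p-value therefore also depends on the filter and on how the spread is estimated.

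The text names all 10 members, counts over 4 related lists with the genes past the threshold and a few others, and the 2 genes most like each member. The members, lists and tests were chosen with earlier results of these data known. The promoter motifs and the fit without both libraries of mouse 3 were chosen after seeing the data. Promoter sequences came from a RefSeq table of GRCm38.p6 and were placed on GRCm39 by exact match. Alternatives were other scalings, filters and tools (DESeq2 1.42.0 and limma 3.58.1 voom), glmTreat, the mouse as a block, thinning to the smallest library, and leaving out each library.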

Additional observations from a re-analysis of the deposited data

How the results depend on the processing

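Over 20 alternatives and 198 comparisons, the fold change of a desmosome gene kept its direction and its side of the threshold in 185, passed the threshold in 6, lost it in 5 and changed sign in 2. As *Pkp3* alone was called in the main fit, most of the 185 are genes called in neither fit. All 5 losses were of *Pkp3*, over its 20 alternatives. The sign changes were in *Jup*, with -0.0075 under library totals only and -0.21 without day 7 replicate 1 (-0.21 to 0.36 with 1 library left out). Genes past the threshold numbered 623 under glmTreat, which tests against the minimum change, and 794 to 2575 with 1 library left out. Desmosome genes past it numbered 0 under glmTreat (*Pkp3* adjusted p = 0.188), where 623 of 15792 genes passed, and 0 to 4 with 1 library left out. They numbered 0 without any 1 day 5 library, in fits that called 892 of 15363, 794 of 15415 and 890 of 15253 genes without replicates 1, 2 and 3. Without day 7 replicate 3 they numbered 4, in a fit that called 16.7% of genes. There were 2 with no filter on low counts (*Dsg1b* and *Pkp3*). With no filter 12.9% of 18687 genes passed. With library totals only, 950 of 1958 genes past the threshold were higher at day 7, against 1140 of 1901 under TMM scaling.

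With the mouse as a replicate block, 2 desmosome genes passed, *Dsg1b* and *Pkp3*, among 2339 genes in all (14.8%), and no other desmosome gene changed its call. Without both libraries of mouse 3, *Dsg1b* passed and *Pkp3* did not, among 1767 genes (12.0%). The causes of these shifts were not tested. At this depth *Dsc1* could not be compared between the days, and the range of *Dsg1b* rests on 17 to 160 counts per library. Differences of the size of *Dsg2* or *Dsp* did not pass this test with 3 libraries per day. Its spread per gene is shared by both days and drawn towards that of other genes. The SD of log2 CPM at days 5 and 7 was 0.017 and 0.145 for *Dsg2* and 0.125 and 0.203 for *Dsp*. These day 7 values lie below the median of 0.327 for genes of at least 10 CPM. With limma voom and a variance per day, the adjusted p was 0.218 for *Dsg2* and 0.0526 for *Dsp*.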

Other observations

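*Ctnnd1*, which encodes p120-catenin of adherens junctions, lay highest in mouse 1 on both days. It measured 191, 62.8 and 68.8 CPM at day 5 and 253, 55.5 and 24.0 CPM at day 7 in mice 1, 2 and 3 (log2 fold change 0.05 ± 0.54, SE, edgeR adjusted p = 0.990). Without day 7 replicate 1 the fold change was -1.41 and past the threshold (adjusted p = 0.0134). *Nectin1*, a partner of *Nectin4*, measured 82.1, 86.8 and 76.3 CPM at day 5 and 114, 111 and 38.2 CPM at day 7, with mouse 3 alone below its own day 5 value. *Krt19*, a luminal duct keratin, rose from 53.1 ± 5.27 to 183 ± 32.8 CPM (SD, n = 3; log2 fold change 1.78 ± 0.21, SE, edgeR adjusted p = 1.6e-05), in contrast to the fall of *Krt8*.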
